A study of Mus musculus with 6 samples.

Results

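The 53 transcription factor genes described here pattern the vertebrate nervous system, and 52 of them could be measured. They were taken as a fixed list of gene symbols in 10 families, and each was measured over the 2 kb tiles that overlap the gene's bounds on the mouse NCBIM37 (mm9) genome plus 5 kb on both sides. Sox1 was not found in the gene annotation used and is not analysed here. The 52 genes lie on 16 chromosomes, their windows span 14 to 192 kb with a median of 20 kb, and together they cover 895 tiles (1790 kb). Of these tiles, 9 belong to more than 1 window, because Dlx1 and Dlx2, Dlx5 and Dlx6, and Zic1 and Zic4 are neighbours. The whole annotation gives 22225 protein-coding genes that were measured in the same way.

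The study mapped H3K27me3, H3K9me2 and H3K9me3 by ChIP-seq in mouse embryonic stem cells (ESCs) of 2 genotypes. Dicer KO cells lack Dicer, the nuclease that matures microRNAs, on a Dnmt1 loxP/loxP background and were made as single-cell clones. Dicer KO/Dnmt1 cKO cells carry the same Dicer deletion and have in addition lost Dnmt1, the maintenance DNA methyltransferase, after Cre was switched on with 4-hydroxytamoxifen. Both were grown in serum with LIF, the sample labels name the strain E14 while the study's methods derive the lines from C57BL/6 cells, and the labels give no day of sampling. Dicer loss is common to both groups, so the comparison describes what accompanied the loss of Dnmt1 in cells without Dicer, and libraries from cells with intact Dicer were not used here. There was 1 library per mark and genotype, so no difference below has a replicate check, and the 95% intervals given are exact binomial (Clopper-Pearson) intervals that cover counting error only.

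H3K27me3 is written by Polycomb repressive complex 2. In ESCs it covers the CpG islands of many developmental regulators, which are held silent there and switched on in single lineages later. H3K9me2 and H3K9me3 mark other kinds of silent chromatin, the former over broad domains and the latter mainly over repeats, imprinted loci and satellite DNA. The genes on the list are classical Polycomb targets in ESCs. They divide the neural plate into forebrain, midbrain, hindbrain and spinal cord, and into the progenitor and neuron types of each.

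CpG-rich DNA at the start site is a sequence feature that most of these genes share. The 4 stretches printed here cover 250 bases before and 50 bases from the annotated start on NCBIM37. They were chosen as the gene with the highest H3K27me3 level (Neurog1), the most CpGs at its start (Pou4f1), the largest fall in H3K27me3 (Nkx6-2) and the smallest change (Pax8). CpG dinucleotides are in capitals, and since the motif CG reads the same on both strands each is counted once. They lie at chr13:56353475-56353774, chr14:104867167-104867466, chr7:146768647-146768946 and chr2:24331070-24331369, all on the minus strand, and are written 5′ to 3′ along the gene.
Neurog1: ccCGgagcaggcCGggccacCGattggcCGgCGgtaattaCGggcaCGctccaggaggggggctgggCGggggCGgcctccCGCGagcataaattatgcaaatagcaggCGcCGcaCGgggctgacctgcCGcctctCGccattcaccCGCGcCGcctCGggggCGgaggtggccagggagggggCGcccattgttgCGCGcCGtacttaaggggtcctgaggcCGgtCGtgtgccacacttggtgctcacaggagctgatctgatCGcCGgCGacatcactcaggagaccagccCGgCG
Pou4f1: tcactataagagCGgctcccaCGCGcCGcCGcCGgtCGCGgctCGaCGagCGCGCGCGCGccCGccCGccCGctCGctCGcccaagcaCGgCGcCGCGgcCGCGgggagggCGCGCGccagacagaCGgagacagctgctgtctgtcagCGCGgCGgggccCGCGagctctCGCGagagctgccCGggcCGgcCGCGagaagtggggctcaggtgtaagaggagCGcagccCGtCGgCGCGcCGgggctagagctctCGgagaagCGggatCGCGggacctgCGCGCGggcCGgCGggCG
Nkx6-2: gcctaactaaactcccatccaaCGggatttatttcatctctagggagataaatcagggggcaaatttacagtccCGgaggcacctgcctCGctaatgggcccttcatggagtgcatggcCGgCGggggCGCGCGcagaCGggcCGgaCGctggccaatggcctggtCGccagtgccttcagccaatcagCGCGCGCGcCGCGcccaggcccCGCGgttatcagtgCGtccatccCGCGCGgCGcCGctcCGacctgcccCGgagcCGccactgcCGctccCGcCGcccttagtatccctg
Pax8: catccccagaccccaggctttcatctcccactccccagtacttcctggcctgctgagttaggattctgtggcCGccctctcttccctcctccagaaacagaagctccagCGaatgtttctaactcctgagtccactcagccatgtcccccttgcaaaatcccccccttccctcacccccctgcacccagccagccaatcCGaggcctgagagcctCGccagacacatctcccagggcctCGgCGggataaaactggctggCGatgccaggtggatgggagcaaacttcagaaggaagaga
The genes themselves are annotated at chr13:56351866-56353524, chr14:104862737-104867216, chr7:146765276-146768696 and chr2:24276071-24331119, so that each stretch holds the first 50 bases of its gene and the DNA upstream of it. These starts held 32, 57, 32 and 7 CpGs. All 52 genes had at least 1 CpG there, as did 95.1% of all protein-coding genes, and 41 of 52 had at least 10, against 54.1% of all genes. The median was 19 CpGs at the patterning genes and 11 over all genes. The range was wide, from 2 at Gbx2 to 57 at Pou4f1, and only 0.211% of all genes had as many as Pou4f1. Over the whole windows the median was 2.54 CpGs per 100 bases, against 1.15 for all genes.

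Values are given as reads and as levels. A level is the number of reads per tile in a window divided by the mean per tile of that library over the genome, so that a level of 1 is the genome mean. A change is the log2 ratio of Dicer KO/Dnmt1 cKO to Dicer KO after each is divided by its total reads. "Fell" and "rose" are used of changes of at least 0.3 in size, among genes with at least 100 reads of the mark over both libraries. The 6 libraries held 16834940 to 27162045 reads, and the median tile held 13 to 18. Genes with an H3K27me3 level of 2 or above in Dicer KO were 10.2% of all other protein-coding genes. The 365 tiles outside the patterning genes at a level of 8 or above were repeat-like, with a mean H3K9me3 level of 189 in Dicer KO, whereas the 37 tiles at that level inside the patterning genes had a mean H3K9me3 level of 0.767. At 10 pluripotency genes, which should lack repressive marks in ESCs, H3K27me3 had a median level of 0.470 in Dicer KO, H3K9me2 one of 0.535 and H3K9me3 one of 0.626.

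In Dicer KO cells nearly all of the patterning genes were covered by H3K27me3. Their median level was 4.38, at the 99.0th percentile of all genes, and 49 of 52 were at or above 2. After Dnmt1 loss the level was lower at every one of the 52 genes, the median was 3.61, and 34 genes fell while none rose. The number at or above a level of 4 went from 33 to 13, and the number at or above 6 from 11 to 0. Of all other genes, 1.22% were at or above 4 in Dicer KO and 0.320% at or above 6. These shares were not counted in Dicer KO/Dnmt1 cKO. At a mean level of both genotypes of 4 and above, the median level of other genes went from 5.54 to 4.19. That of the patterning genes went from 5.50 to 4.00. Over all protein-coding genes, falls made up 6.72% and rises 16.5%. The change was below 0 at 40.3% of all other genes with enough reads. That share was 83.7% at a mean level of both genotypes of 2 and above, and 93.9% at 3 and above. Pooled over the 895 tiles, 71284 reads in Dicer KO stood against 45076 in Dicer KO/Dnmt1 cKO, which is a change of -0.31 after scaling to total reads (95% interval -0.33 to -0.29). The median change was -0.35, against 0.05 over all genes. The counting interval lay below 0 at 44 of the 52 genes, whose windows held a median of 1650.5 reads over both libraries. The share of other genes with such an interval was not counted.

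The 10 genes with the most H3K27me3 in Dicer KO all fell. Neurog1, a bHLH factor that drives sensory neuron formation, had the highest level, 8.63 in Dicer KO from 1236 reads and 5.81 in Dicer KO/Dnmt1 cKO from 652 reads, a change of -0.57 (-0.71 to -0.43). Sox14, a SoxB repressor, went from 7.81 to 5.40, with 1119 and 606 reads. Pou4f1, a POU factor of sensory neurons, went from 7.55 to 5.44 (1390 and 785 reads). Lhx1, a LIM homeobox gene of the head organizer and of spinal interneurons, went from 7.37 to 5.72 (1357 and 825 reads). Its change of -0.37 was the smallest of the 10. Nkx2-1, which specifies ventral forebrain, went from 7.18 to 5.45 and Nkx6-1, which marks ventral spinal progenitors, from 7.11 to 4.91. Neurog2 went from 6.58 to 4.61, Barhl2 from 6.51 to 4.40, Pou3f3 from 6.46 to 4.41 and Otx1 from 6.26 to 4.35. The levels of neighbours in this order differed by less than the change between genotypes, and no gene of the 52 had a level above 5.81 in Dicer KO/Dnmt1 cKO.

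**Figure D1:**
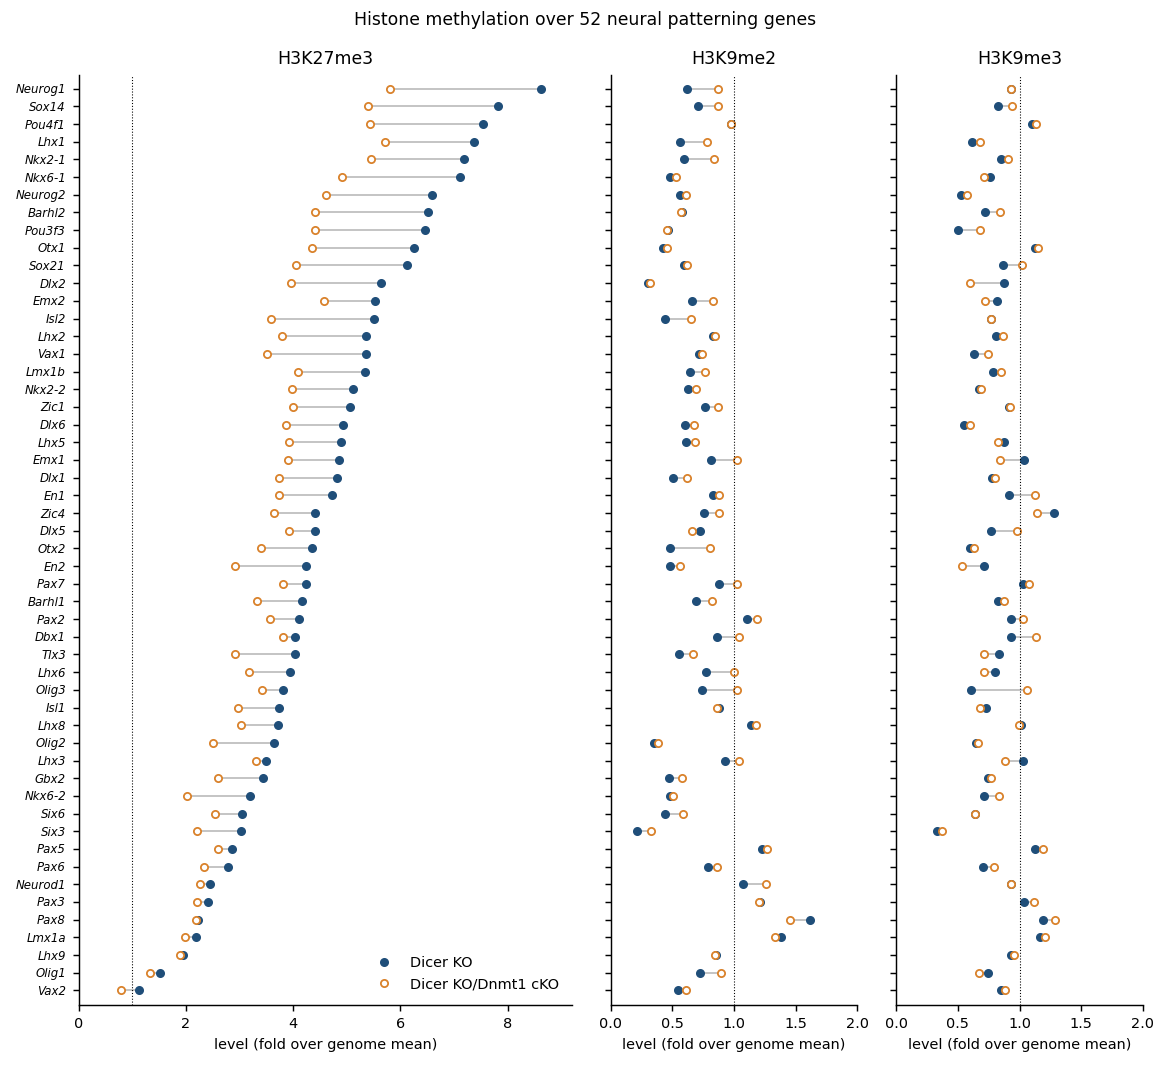
Level of H3K27me3, H3K9me2 and H3K9me3 (x axes, fold over the genome mean) at each of the 52 genes (rows, ordered by H3K27me3 in Dicer KO), with filled points for Dicer KO and open points for Dicer KO/Dnmt1 cKO, 1 library each. Every open H3K27me3 point lies to the left of its filled point, from Neurog1 (8.63 and 5.81) at the top to Vax2 (1.12 and 0.791) at the bottom, while most points of the other marks lie below the genome mean of 1 (dotted line).

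The largest falls were not confined to the richest genes. Nkx6-2, an oligodendrocyte and ventral neural tube factor, had 457 reads in Dicer KO and 226 in Dicer KO/Dnmt1 cKO, levels of 3.19 and 2.01, and the largest change of the 52, -0.66 (-0.90 to -0.43). Isl2, a LIM homeobox gene of motor neurons, had 1125 and 575 reads and a change of -0.62 (-0.76 to -0.47). Vax1, a gene of the optic stalk, changed by -0.61 (985 and 507 reads), and Sox21 by -0.60 (1002 and 519 reads). With Neurog1 these were the 5 largest falls.

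At the other end, 8 genes had intervals that included 0. Pax8 was the least changed, with 1552 and 1190 reads, levels of 2.23 and 2.18 and a change of -0.03 (-0.14 to 0.08). Lhx9 changed by -0.05 (-0.22 to 0.11), Lhx3 by -0.08 (-0.25 to 0.08), Dbx1 by -0.08 (-0.24 to 0.08) and Neurod1 by -0.11 (-0.33 to 0.11). The others were Olig3, Dlx5 and Olig1. The 5 lowest levels in Dicer KO were those of Vax2 (1.12), Olig1 (1.52), Lhx9 (1.95), Lmx1a (2.18) and Pax8. Of these, Vax2 alone fell, with 436 and 241 reads and a change of -0.50 (-0.74 to -0.27).

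The families differed in level and in the size of the change. The SoxB pair, Sox14 and Sox21, had the highest median level, 6.97 in Dicer KO and 4.72 in Dicer KO/Dnmt1 cKO, and both fell. The 4 Nkx genes, which pattern the ventral neural tube, had a median level of 6.12 and 4.45, and each fell, by 0.37 at Nkx2-2 to 0.66 at Nkx6-2 on the log2 scale. Of the 6 factors of interneurons and sensory neurons, 5 fell, with Barhl2 (-0.56), Pou3f3 (-0.55), Pou4f1 and Tlx3 (both -0.47) ahead of Barhl1 (-0.32), and Dbx1 as the exception. Their median level was 5.31 in Dicer KO and 4.11 in Dicer KO/Dnmt1 cKO.

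The forebrain and eye homeobox genes had a median level of 4.60 in Dicer KO and 3.46 in Dicer KO/Dnmt1 cKO, and 6 of 8 fell. Vax1, Otx1 (-0.52), Vax2 and Six3 (-0.46), a forebrain and eye field gene, changed most, followed by Otx2 (-0.36) and Emx1 (-0.31), while Emx2 (-0.27) and Six6 (-0.26) stayed short of the threshold. All 3 genes of the midbrain and hindbrain fell. They were En2 (-0.54), Gbx2 (-0.41) and En1 (-0.34), from a median level of 4.25 to 2.92. The Dlx genes, which specify forebrain interneurons and lie in tail-to-tail pairs, had a median level of 4.88 in Dicer KO and 3.90 in Dicer KO/Dnmt1 cKO. Dlx2 (-0.51), Dlx1 (-0.36) and Dlx6 (-0.35) fell and Dlx5 (-0.17) did not reach the threshold, and since each pair shares tiles the 4 values are not independent.

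Of the 11 LIM homeobox genes, which specify motor neurons and interneurons, 7 fell, namely Isl2, Lhx2 (-0.50), Lmx1b (-0.39), Lhx1, Isl1 (-0.33), Lhx5 (-0.32) and Lhx6 (-0.31). Lhx8 (-0.29), Lmx1a (-0.13), Lhx3 and Lhx9 did not. The bHLH family split evenly. Neurog1, Olig2 (-0.54), which specifies motor neurons and oligodendrocytes, and Neurog2 (-0.52) fell, and Olig1 (-0.19), Olig3 (-0.16) and Neurod1 did not. Zic1 (-0.34) fell and its neighbour Zic4 (-0.28) was just short of the threshold.

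The 6 Paired box genes had the lowest median level of the families in Dicer KO, 2.82, and the smallest median change, -0.14, and none of them fell. Pax6 (-0.26), the master gene of the eye, changed most, followed by Pax2 (-0.20), Pax7 (-0.15), Pax5 (-0.14), Pax3 (-0.12) and Pax8. Their windows are long, with 23 to 96 tiles, and Lmx1b, which fell, has 46 tiles. Whether the length of the window bears on the change was not tested. Over the single richest tile of each window the change was -0.96 at Pax5, -0.57 at Pax6, -0.54 at Pax7, -0.50 at Pax2, -0.12 at Pax3 and 0.17 at Pax8. It was thus more negative than over the window at 4 of the 6 genes, close to it at Pax3 and of the other sign at Pax8. Over whole windows, genes outside the list at a mean level of 2 to 3 had a median change of -0.12, close to that of the family. Pax7 and Pax2 had higher mean levels, 4.02 and 3.84. Other genes at 4 and above and at 3 to 4 had medians of -0.37 and -0.26. Pax7 and Pax2 lay 0.22 and 0.06 above these.

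Genes outside the list with the same amount of H3K27me3 also lost it. All protein-coding genes were placed in classes by the mean H3K27me3 level of both genotypes. At a level of 4 and above, the median change was -0.40 over 27 patterning genes and -0.37 over 193 other genes. At 3 to 4 it was -0.32 over 13 patterning genes and -0.26 over 319 others, and at 2 to 3 it was -0.14 over 9 and -0.12 over 1584. Over genes at a level of 1 to 1.5 the median of the others was -0.01, and below 1 it was 0.16. The share that fell at a level of 4 and above was 85.2% of patterning genes and 71.5% of other genes. This class has no upper limit, and other genes in it reached a level of 647 in Dicer KO. Of its 193 other genes 14 rose (7.25%), against none of the patterning genes. Subtracting from each patterning gene the median of the other genes of its class left a median of -0.05, with 34 genes below 0 and 18 above, and 24 of the 52 within 0.1 of 0. With classes set by the richest tile of the window in place of its mean level, the median difference was -0.17.

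**Figure D2:**
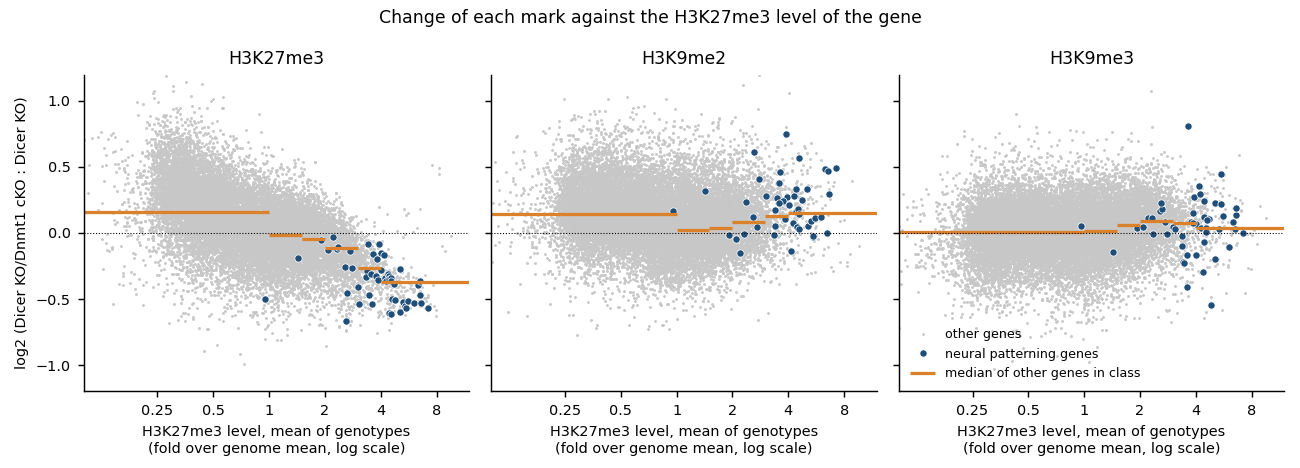
Log2 ratio of Dicer KO/Dnmt1 cKO to Dicer KO (y axes, 3 marks) against the mean H3K27me3 level of the gene in both genotypes (x axes, log scale), with patterning genes as large points, other protein-coding genes with at least 100 reads as grey dots and their median per class as bars. The few other genes at levels under 0.1 or over 12 are outside the axes. The bars for H3K27me3 step down from 0.16 below a level of 1 to -0.37 at 4 and above, and the patterning genes scatter around them.

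Vax2, Nkx6-2 and Six3 lay farthest below the other genes of their class, by 0.66, 0.55 and 0.34. Pax7 lay farthest above, by 0.22. Vax2 was the only patterning gene in the class under 1, near its upper edge. Its level in Dicer KO was 1.12, against a median of 0.48 over the other genes of that class. The value for Vax2 thus depends on the class edge, since the other genes at 1 to 1.5 had a median change of -0.01 and those under 1 one of 0.16. A separate list of 55 other neural patterning genes had a median level of 4.03 in Dicer KO and 3.06 in Dicer KO/Dnmt1 cKO and a median change of -0.36, and 34 of them fell and none rose. The median level at 15 housekeeping genes was 0.226 in Dicer KO and 0.343 in Dicer KO/Dnmt1 cKO, and the median change over the 8 of them with enough reads was 0.24. Tiles outside the patterning genes at a level of 4 to 8 held 2.36% of H3K27me3 reads in Dicer KO and 1.81% in Dicer KO/Dnmt1 cKO, a change of -0.39, against -0.41 in the 256 tiles of that level inside them. A loss of the mark at these genes and a library with less enrichment everywhere cannot be told apart with 1 library per genotype.

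The change varied with CpG content as well as with the H3K27me3 level. Across the 52 genes the correlation of change with CpGs per 100 bases was -0.70 (Pearson; Spearman -0.69), and with log2 level it was -0.43 (Spearman -0.55). The points share their libraries, and CpG content and level in Dicer KO were themselves correlated (0.60), so these are descriptions without a test. Among the 15 genes with at least 3 CpGs per 100 bases the median change was -0.52, and among the 11 with 2 to 2.5 it was -0.26. Pax8, with the fewest CpGs (0.866 per 100 bases), changed least, while Pou3f3 with the most (3.86) changed by -0.55. The relation was loose, since Vax2 (1.48 CpGs per 100 bases), Lmx1b (1.86), Lhx6 (1.88), Isl1 and Emx1 (both 1.93), Neurog1 (2.04) and Lhx2 (2.09) fell, whereas Emx2 with 3.17 changed by -0.27.

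Among other genes the median change was lower only in the classes with the most CpGs. It ran from -0.05 to 0.10 in the 5 classes below 2.5 CpGs per 100 bases and was -0.27 over 316 genes at 2.5 to 3 and -0.39 over 138 genes at 3 and above, of which 47 with a mean H3K27me3 level under 1.5 had a median of -0.08. Set against other genes of the same CpG class alone, the patterning genes differed by a median of -0.15, and 50 of 52 lay below 0. When level and CpG class were matched together, a step added after the data were seen, the patterning genes differed from the other genes by a median of -0.01, with 27 of 52 below 0. The number of other genes per class then ran from 16 to 4355. Nkx6-2 was 0.19 and Six3 0.11 below the other genes of their level and CpG class. Vax2 was 0.71 below, again set against genes of the level class under 1, at whose edge it lies.

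**Figure D3:**
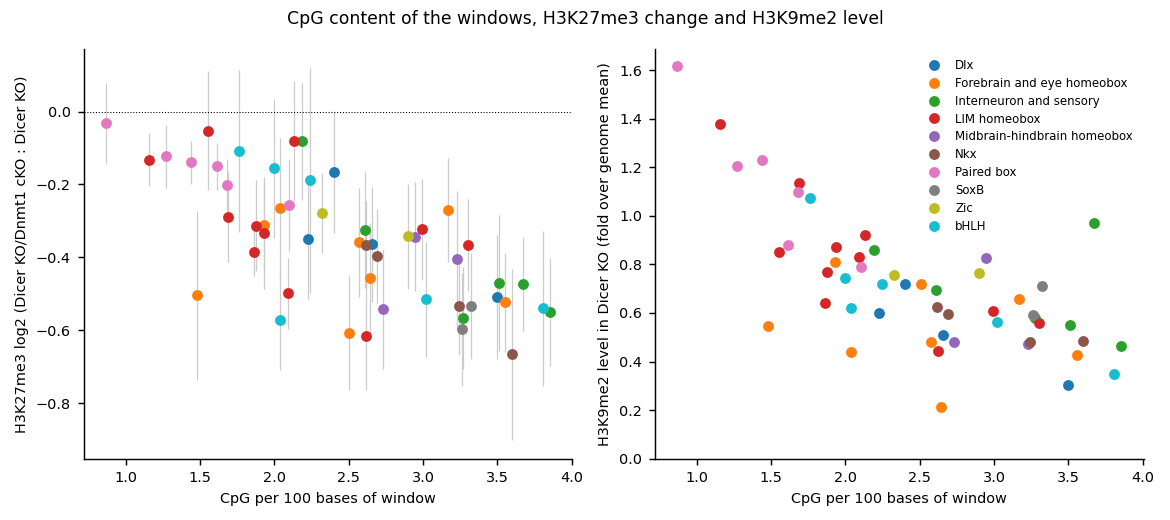
CpGs per 100 bases of each window (x axes) against the H3K27me3 change with its 95% counting interval (left, y axis log2 ratio) and against the H3K9me2 level in Dicer KO (right, fold over the genome mean), for 52 genes coloured by family. Both decline to the right, with correlations of -0.70 for the change and, against the log2 of the level, -0.66 for H3K9me2.

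The H3K27me3 lay as a broad hill over the start sites. In Dicer KO the median level was 6.30 in the tile of the start site and 6.70 in the next tile downstream, and it declined to 2.10 at 10 kb and 1.47 at 20 kb upstream. In Dicer KO/Dnmt1 cKO the same positions had 4.24, 4.83, 2.12 and 1.68. The median was lower after Dnmt1 loss at every tile within 20 kb on both sides except those at 20 and 10 kb upstream and at 16 kb downstream (2.35 and 2.46), and the difference was largest over the start. At 10 kb downstream it went from 3.30 to 2.96. Other genes at a level of 2 and above had 3.71 in Dicer KO and 2.99 in Dicer KO/Dnmt1 cKO in the start tile.

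**Figure D4:**
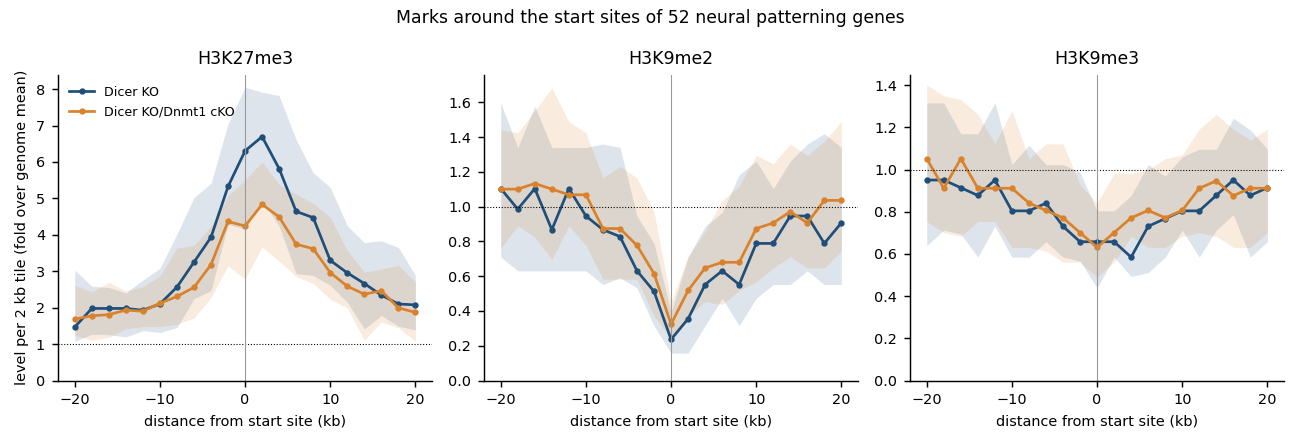
Median level per 2 kb tile (y axes, fold over the genome mean) by distance from the start site in the direction of transcription (x axes, kb) over the 52 genes, with the span from the lower to the upper quartile shaded. H3K27me3 peaks over the start in both genotypes (6.30 and 4.24), where H3K9me2 dips to 0.24 and 0.32.

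The richest tile of each window, which lay within 3 kb of the start at 30 genes, had a median level of 7.84 in Dicer KO and 5.83 in Dicer KO/Dnmt1 cKO and was lower in the latter at 49 genes. The exceptions, Neurod1 (0.05), Pax8 (0.17) and Lmx1a (0.06), had intervals that included 0. The richest tiles of all were at Pax7, Pou3f3 and Sox14, with 255, 253 and 248 reads in Dicer KO. These tiles were picked as the highest over both libraries.

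The width of the domains changed less than their height. The run of tiles at or above a level of 2 at the start had a median width of 30 kb in Dicer KO and 28 kb in Dicer KO/Dnmt1 cKO. It was narrower at 26 genes, equal at 19 and wider at 7. Of the 895 tiles, 706 and 667 reached a level of 2. Lmx1b had the widest run, 96 and 92 kb, and Pax7 the next, 90 and 88 kb. Shortened runs were found at Pax5 (88 to 42 kb), Six3 (28 to 8 kb), Sox21 (32 to 14 kb) and Olig2 (22 to 6 kb), where a run ends as soon as a single tile drops under 2. At Lhx9 it went from 8 to 14 kb.

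Single loci showed the same shapes. At Neurog1 the tile of the start held 232 reads in Dicer KO and 119 in Dicer KO/Dnmt1 cKO, levels of 11.3 and 7.42, while the tile 20 kb upstream held 35 and 32 reads. At Lhx1 the domain ended sharply, from levels of 6.65 and 5.86 at 10 kb downstream to 0.34 and 0.50 at 20 kb. Pax6 went from 8.26 to 5.55 at its start, and Olig2 from 3.91 to 2.37. Vax2 differed from the rest, since its H3K27me3 lay upstream of the start. Its start tile held 29 and 8 reads, whereas the tile 10 kb upstream held 54 and 38.

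**Figure D5:**
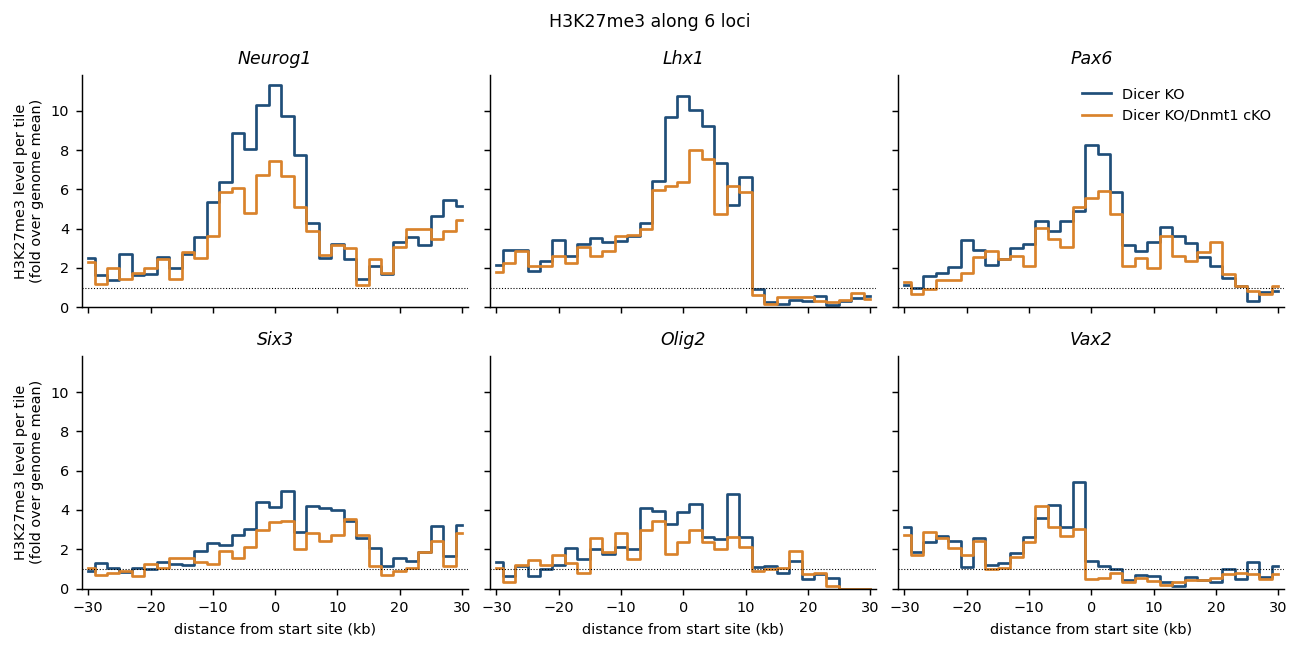
H3K27me3 level per 2 kb tile (y axes, fold over the genome mean) within 30 kb of the start site (x axes, kb, in the direction of transcription) at 6 loci, with 1 line per genotype. The Dicer KO line is the higher over the start of each gene, with 11.3 and 7.42 at Neurog1 and 8.26 and 5.55 at Pax6, and the lines run closer together away from it.

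H3K9me2 lay below the genome mean at most patterning genes and was slightly higher after Dnmt1 loss. The median level was 0.675 in Dicer KO and 0.825 in Dicer KO/Dnmt1 cKO, and it was below the genome mean at 45 and 39 genes. Over all protein-coding genes the medians were 0.749 and 0.836, and at housekeeping genes 0.418 and 0.464. Among genes with at least 100 reads, patterning genes had the higher median in Dicer KO in each CpG class that held any. It was 0.743 against 0.489 over other genes at 2 to 2.5 CpGs per 100 bases, and 0.562 against 0.522 at 3 and above. Of the 49 patterning genes with at least 100 reads, 12 rose (24.5%, or 8 genes after all genes are centred on a median of 0) and none fell, against 18.9% rises and 2.47% falls over all genes. The median change was 0.18, against 0.10 over all genes, which leaves 0.07 once all genes are centred on 0. The pooled change of 0.10 (0.06 to 0.14, 10224 and 13347 reads) became -0.0023 when centred in this way, so that its direction depends on the scaling. Set against other genes of the same CpG class, the patterning genes differed by a median of -0.02, with 28 of 49 below 0. Over the 11 housekeeping genes with enough reads the median change was 0.22, and 27.3% of them rose. Nkx6-2, Olig2 and Dlx2 had too few reads, with 98, 72 and 61 over both libraries.

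Otx2, a gene of forebrain and midbrain that is also active in early epiblast, rose most, from 67 to 137 reads and from a level of 0.480 to 0.806, a change of 0.75 (0.32 to 1.19). Six3 rose from 43 to 80 reads (0.61, interval 0.06 to 1.18) and Isl2 from 56 to 101 reads (0.57, 0.08 to 1.06). The other 9 were Neurog1, Nkx2-1, Lhx1, Olig3, Six6, Lhx6, Emx2, Emx1 and Olig1, with changes of 0.32 to 0.49. Even after these rises all 3 leading genes remained below the genome mean. At the low end were Pax8 (-0.15), from 697 to 764 reads in a deeper library, Dlx5 (-0.13) and Lmx1a (-0.05), and Pax8 had the only interval below 0.

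By family, the forebrain and eye homeobox genes had the largest median change in H3K9me2, 0.33, with 5 of 8 rising, and the bHLH genes the next, 0.27, with 3 rising. The medians of both stayed above 0 after centring. Family medians were taken over all members, so that of the bHLH genes includes Olig2, which had too few reads (72). The Paired box genes had the highest level, a median of 1.15 in Dicer KO, and a median change of 0.08, which is below that of all genes. At the same H3K27me3 level other genes changed similarly in H3K9me2, since at a level of 4 and above the median was 0.16 over 26 patterning genes and 0.15 over 172 others. At 3 to 4 it was 0.26 over 12 patterning genes and 0.13 over 298 others. The dip of H3K9me2 at the start site remained, with a median of 0.24 in Dicer KO and 0.32 in Dicer KO/Dnmt1 cKO in the start tile, against 0.39 and 0.45 over all other genes.

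The correlation of the change in H3K27me3 with the change in H3K9me2 across the 52 genes was -0.11 (Pearson; Spearman -0.05). These 52 include Nkx6-2, Olig2 and Dlx2, which had too few reads of H3K9me2. The H3K9me2 counting interval reached 0.42 to either side at the median gene, while the quartiles of the change were 0.05 and 0.29. With counting error of that size, the correlation cannot tell whether the changes go together from gene to gene. In Dicer KO no gene had more H3K9me2 or H3K9me3 than H3K27me3 by level. H3K9me2 was lower where CpGs were dense, with a correlation of -0.66 between log2 level and CpGs per 100 bases, and the 4 genes with the highest levels were Pax8 (1.62), Lmx1a (1.38), Pax5 (1.23) and Pax3 (1.21). Within the patterning genes, tiles at an H3K27me3 level of 8 and above had an H3K9me2 level of 0.360 in Dicer KO and 0.492 in Dicer KO/Dnmt1 cKO (169 and 281 reads), and tiles at a level of 1 to 2 had 1.13 and 1.15. Tiles at a level under 1 had 0.699 and 0.766, so that H3K9me2 was not highest where H3K27me3 was lowest.

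H3K9me3 over the patterning genes was near the genome mean and changed little. The median level was 0.823 in Dicer KO and 0.844 in Dicer KO/Dnmt1 cKO. All 52 genes had at least 100 reads, 3 rose and 2 fell (5.77% and 3.85%), which is near the 6.06% and 5.24% of all genes. The median change was 0.05, and the pooled change was 0.06 (0.03 to 0.10, 11288 and 12294 reads).

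Olig3, a bHLH gene of dorsal progenitors, rose most, from 58 to 106 reads and from a level of 0.606 to 1.06, a change of 0.81 (0.33 to 1.30). It was the only gene whose H3K9me3 interval lay above 0, and its H3K9me2 rose as well (0.47, 66 and 111 reads). Pou3f3 rose from 55 to 78 reads (0.44, -0.07 to 0.97) and Dlx5 from 84 to 112 (0.35, -0.07 to 0.78). Dlx2 fell from 84 to 60 reads (-0.55, -1.05 to -0.05) and En2 from 97 to 76 (-0.41, -0.86 to 0.04), and Emx1 followed just short of the threshold (-0.30, 198 and 168 reads). Except for Olig3 and Dlx2, these intervals included 0. Measured against other genes of the same H3K27me3 level, the median difference in H3K9me3 was 0.0011, with 26 genes below 0 and 26 above.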

How the data were processed

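Chromatin from mouse ESCs was immunoprecipitated with antibodies against H3K27me3, H3K9me2 and H3K9me3 and sequenced by the authors, who trimmed reads with Trim Galore, aligned them to NCBIM37 with Bowtie2 and discarded alignments of low mapping quality. The deposited values are log2 ratios of observed to expected reads in 2 kb tiles (1327469 tiles), a tile size taken from the table itself. Back on the linear scale, values came in whole steps of 1 read (within 0.1 read, except for 1 value in each H3K9me3 library), with empty tiles at 0.9 of 1 step, so reads were recovered by division. Of 25 value columns, 19 were not used, among them the input, so levels are not corrected for input. Gene bounds came from a GENCODE annotation on NCBIM37, whose 22 chromosome lengths equalled those of the table.

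Reads were summed per window, scaled to the library total and compared without a test, because the design has 1 library per mark and genotype. Genes needed 100 reads of a mark over both libraries, changes were counted at 0.3 (log2), and level classes were cut at 1, 1.5, 2, 3 and 4. The genes named are those with the 10 highest and 5 lowest H3K27me3 levels and the 5 largest changes in each direction, the 3 largest in each direction for the other marks, and the extremes of each family; the remaining members are given by count or value. The genes, the lists set beside them and these rules were chosen with earlier results of these data known. Intervals cover counting error only, and at the median member they reached 0.15 to either side of the H3K27me3 change, 0.42 in H3K9me2 and 0.40 in H3K9me3. The calculations were tested on simulated data. Python 3.11.15, NumPy 2.4.6, pandas 2.3.3, SciPy 1.17.1 and matplotlib 3.10.9 were used.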

Additional observations from a re-analysis of the deposited data

How the results depend on the processing

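H3K27me3 was lower over the patterning genes under every alternative tried, with a pooled change of -0.44 to -0.31 and a median change of -0.46 to -0.35, and no gene rose. The pooled change was -0.36 with all genes centred on a median of 0, -0.36 with trimmed-mean scaling, -0.44 within 5 kb of the start site (median -0.46), -0.41 after subtracting the median reads per tile and -0.34 without the 3 genes with most reads (Lmx1b, Pax5 and Pax7). At thresholds of 0.5 and 1 the falls numbered 15 and 0. The median difference from other genes of the same level was -0.17 when classes were set by the richest tile, and -0.01 with level and CpG class together.

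H3K9me2 depended on the scaling. Its pooled change became -0.0023 with centring, -0.0043 with trimmed-mean scaling and -0.050 after subtracting the median reads per tile, which left 7 genes with 3 rises, 1 fall and a median difference of 0.18 from genes of the same level. It was 0.19 within 5 kb of the start site, with 2 falls, and 0.16 without the 3 genes with most reads of this mark (Pax5, Lmx1a and Pax3). The median change was 0.074 with centring, 0.072 with trimmed-mean scaling and 0.11 with at least 300 reads. The rises numbered 2 with gene bounds only (1 fall), 2 with at least 300 reads, and 3 and 0 at thresholds of 0.5 and 1.

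For H3K9me3 the median change was 0.028 with centring and 0.029 with trimmed-mean scaling. After subtraction 9 genes were left, with 8 rises, 1 fall, a pooled change of 0.61, a median of 0.50 and a difference of 0.083 from genes of the same level. Rises and falls numbered 0 and 1 with gene bounds only, 11 and 8 within 5 kb of the start site, 0 and 0 with at least 300 reads, 5 and 1 with tiles wholly inside the window, 1 and 1 at a threshold of 0.5 and 0 and 0 at 1, with 1 fall among genes that share no tile. Except where fewer reads, genes or a higher threshold were used by construction, the cause was not tested. No paired analysis was possible because the result comes from no test and a genotype has a single library for every mark. At 100 to 300 reads a window's interval is wide, which limits the H3K9me2 and H3K9me3 values of single genes.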
